A study of Mus musculus with 12 samples.

Results

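The S100 genes encode small calcium-binding proteins, and 9 of them were described here in myeloid-derived suppressor cells (MDSCs) sorted from mouse liver tumors: S100a8, S100a9, S100a5, S100a4, S100a6, S100a10, S100a11, S100a1 and S100a13. They are 9 of the 24346 gene symbols in each expression table and were picked by symbol. They were picked with their values in these libraries known, so their levels and differences are given as a description, without p-values. All 9 were above the limit on low values in both cell types, S100a5 in PMN-MDSCs through treated libraries.

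S100 proteins are made of paired EF hands, the helix-loop-helix fold that holds calcium, and most act as dimers that change shape when calcium rises and then bind a target protein. S100A8 and S100A9 form calprotectin, which fills the cytosol of neutrophils, is also made by monocytes, withholds zinc and manganese from microbes, and signals through TLR4 and RAGE once released. In tumor-bearing mice S100A8 and S100A9 are known as products and attractants of MDSCs, the immature myeloid cells that restrain T cells.

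RNA-seq had been made from 12 libraries, 2 in each of 6 groups. The cells came from Hepa 1-6 tumors, a mouse hepatoma line grown in the liver of wild-type female C57BL/6J mice aged 6 to 8 weeks, per the study's methods. M-MDSCs, the monocytic subset, and PMN-MDSCs, the polymorphonuclear subset, were each taken from mice given vehicle, MS-275 or CXD101, both inhibitors of the class I histone deacetylases HDAC1, HDAC2 and HDAC3. The methods give 5 mg/kg of inhibitor by daily intraperitoneal injection for 10 days from day 10 after inoculation, and collection on day 21. They describe these steps for the M-MDSC libraries, and the PMN-MDSC libraries are taken from the labels alone. The labels give all 6 groups the genotype WT and the tumor as tissue, and do not say whether same-numbered libraries share a mouse, so p-values below measure the spread between these libraries.

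The 9 genes lie on mouse chromosome 3, in 2 stretches of the S100 cluster (mm10, gene models of GENCODE for the same assembly, GRCm38). The first stretch holds S100a1 (chr3:90511034-90514392, minus strand), S100a13 (chr3:90514435-90524581, plus), S100a4 (chr3:90603771-90606045, plus), S100a5 (chr3:90608523-90611780, plus), S100a6 (chr3:90612882-90624181, plus), S100a8 (chr3:90668978-90670035, plus) and S100a9 (chr3:90692632-90695721, minus). The second holds S100a11 (chr3:93520488-93526287, plus) and S100a10 (chr3:93555080-93564643, plus). S100a8 and S100a9 are neighbours on opposite strands and point toward each other.

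Promoter windows from 250 bases before to 50 bases after the RefSeq start (GRCm38.p6) were found for 8 of the 9 genes. Those of S100a8, S100a9, S100a5 and S100a4 are printed because these genes had the highest levels (S100a8, S100a9), the largest fold change (S100a5) and a change with MS-275 that turned direction between cell types (S100a4). All are written 5′ to 3′ on the gene's own strand, with capitals for the letters of 4 motifs. The first, TTGCNNAA, is a short form of the C/EBP site. The next, GAGGAA, is the core of sites for ETS factors such as PU.1 and appears reversed where it lies on the other strand. The others are the TATA box, searched as TATAAA, and the GC box. The GC box was searched as GGGCGG. Both strands were searched, and no 2 matches shared a base.
S100a8 (chr3:90668821-90669120, plus): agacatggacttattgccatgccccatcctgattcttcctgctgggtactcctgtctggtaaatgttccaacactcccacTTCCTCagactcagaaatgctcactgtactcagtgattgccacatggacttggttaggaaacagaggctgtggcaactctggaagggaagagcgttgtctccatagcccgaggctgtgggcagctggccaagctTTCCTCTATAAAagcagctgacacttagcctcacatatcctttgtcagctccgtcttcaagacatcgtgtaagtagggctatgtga
S100a9 (chr3:90695672-90695971, minus): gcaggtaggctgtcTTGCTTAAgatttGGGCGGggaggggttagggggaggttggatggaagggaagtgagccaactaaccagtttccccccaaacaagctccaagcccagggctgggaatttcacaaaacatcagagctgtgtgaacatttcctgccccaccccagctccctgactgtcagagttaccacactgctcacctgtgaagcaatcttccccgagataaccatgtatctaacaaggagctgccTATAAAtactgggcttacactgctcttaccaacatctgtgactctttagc
S100a5 (chr3:90608272-90608571, plus): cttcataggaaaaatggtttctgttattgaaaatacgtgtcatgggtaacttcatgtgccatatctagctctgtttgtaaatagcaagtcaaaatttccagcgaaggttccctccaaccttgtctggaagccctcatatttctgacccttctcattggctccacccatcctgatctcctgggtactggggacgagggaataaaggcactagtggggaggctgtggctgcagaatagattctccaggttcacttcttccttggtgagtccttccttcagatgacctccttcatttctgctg
S100a4 (chr3:90603520-90603819, plus): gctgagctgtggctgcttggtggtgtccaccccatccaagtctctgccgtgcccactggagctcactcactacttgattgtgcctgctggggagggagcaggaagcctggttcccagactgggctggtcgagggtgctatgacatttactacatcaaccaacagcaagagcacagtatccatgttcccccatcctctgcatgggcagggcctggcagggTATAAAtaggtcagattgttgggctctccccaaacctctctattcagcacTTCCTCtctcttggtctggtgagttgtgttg
The S100a8 window held the ETS letters beginning at -170 and -36 from the start and TATAAA at -30, which directly follows the second ETS match. The S100a9 window held the C/EBP letters at -236, GGGCGG at -223 and TATAAA at position 1. The S100a4 window held TATAAA at -31 and the ETS letters at 20, and the S100a5 window held none of the 4. Among the other windows, S100a11 held the ETS letters at -153 and 3 GC boxes, and S100a6, S100a1 and S100a13 held none. Of 32851 RefSeq windows of the same length, the C/EBP letters were in 10.8%, the ETS letters in 28.3%, TATAAA in 13.6% and GGGCGG in 35.7%. A match describes these letters and is not a measured binding site.

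Levels are in FPKM, fragments per kilobase of transcript, scaled to library size, so they can be compared between genes. Differences are log2 fold changes on log2(FPKM + 1) with their standard error (SE), which understate the change of genes near 1 FPKM. A gene is called, or past both limits, when the Benjamini-Hochberg adjusted p-value of limma is under 0.05 and the fold change above 1.5. The spacing of the lowest FPKM values gave estimated depths of 8.41 to 10.7 M fragments for M-MDSC and 7.02 to 8.14 M for PMN-MDSC libraries. Over all genes the median SE was 0.0975 for inhibitor effects on the monocytic and 0.114 for those on the polymorphonuclear subset. The sorting marker Itgam (CD11b) stood at 257 to 285 FPKM in M-MDSC libraries and 825 to 895 FPKM in PMN-MDSC libraries, and Ly6g was not analysed here. Ly6c2, a gene of the Ly-6C antigen used in the sort, did move with treatment. Its mean was 1333 FPKM in vehicle M-MDSCs, 2421 with MS-275 and 2076 with CXD101, and 483 FPKM in vehicle PMN-MDSCs, 1582 with MS-275 and 1523 with CXD101. All 4 treated PMN-MDSC libraries (1418 to 1677 FPKM) thus lay above both vehicle M-MDSC libraries (1306 and 1360 FPKM). Ly6c1 was weaker, with means of 5.81, 10.1 and 8.91 FPKM in M-MDSCs and 1.16, 8.88 and 6.53 FPKM in PMN-MDSCs under vehicle, MS-275 and CXD101. The rise of both genes was called in all 4 comparisons except that of Ly6c1 with CXD101 in M-MDSCs, and the part of either in the S100 results was not tested.

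Before any inhibitor, the 2 subsets already differed in these genes. In vehicle libraries 6 of the 9 genes differed, against 34.0% of the 11662 genes tested: 4 were higher in PMN-MDSCs (S100a8, S100a9, S100a6 and S100a11) and 2 were lower (S100a4 and S100a10). S100a8 was 7.20-fold higher in PMN-MDSCs (log2 difference 2.85, SE 0.17) and S100a9 was 7.14-fold higher (2.84, SE 0.11). S100a6, the calcyclin gene, was 4.05-fold higher and S100a11, the calgizzarin gene, 3.16-fold higher. S100a10, whose product p11 pairs with annexin A2, was lower, with a mean of 253 against 507 FPKM, and S100a4, whose product binds non-muscle myosin IIA, was 1.85-fold lower.

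The order of the levels in vehicle M-MDSCs ran from S100a8 through S100a9, S100a11, S100a4, S100a10, S100a6, S100a1 and S100a13 to S100a5. No neighbours in that order overlapped between their 2 libraries, although S100a10 (507 FPKM in both) and S100a6 (498 and 507) were nearly level. In vehicle PMN-MDSCs the libraries of S100a8 and S100a9 overlapped, S100a6 stood above S100a4 and S100a10, and the rest kept the same order. Under either inhibitor in PMN-MDSCs S100a9 moved above S100a8 with no overlap between their libraries, and S100a13 moved above S100a1. Ranked among all 24346 symbols, S100a8 was first and S100a9 the next in both vehicle PMN-MDSC libraries, and these places were exchanged in all 4 treated PMN-MDSC libraries. S100a11 ranked between 8 and 11 in PMN-MDSC libraries and between 32 and 83 in M-MDSC libraries, and S100a6 between 12 and 24 against 139 and 175.

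**Figure D1:**
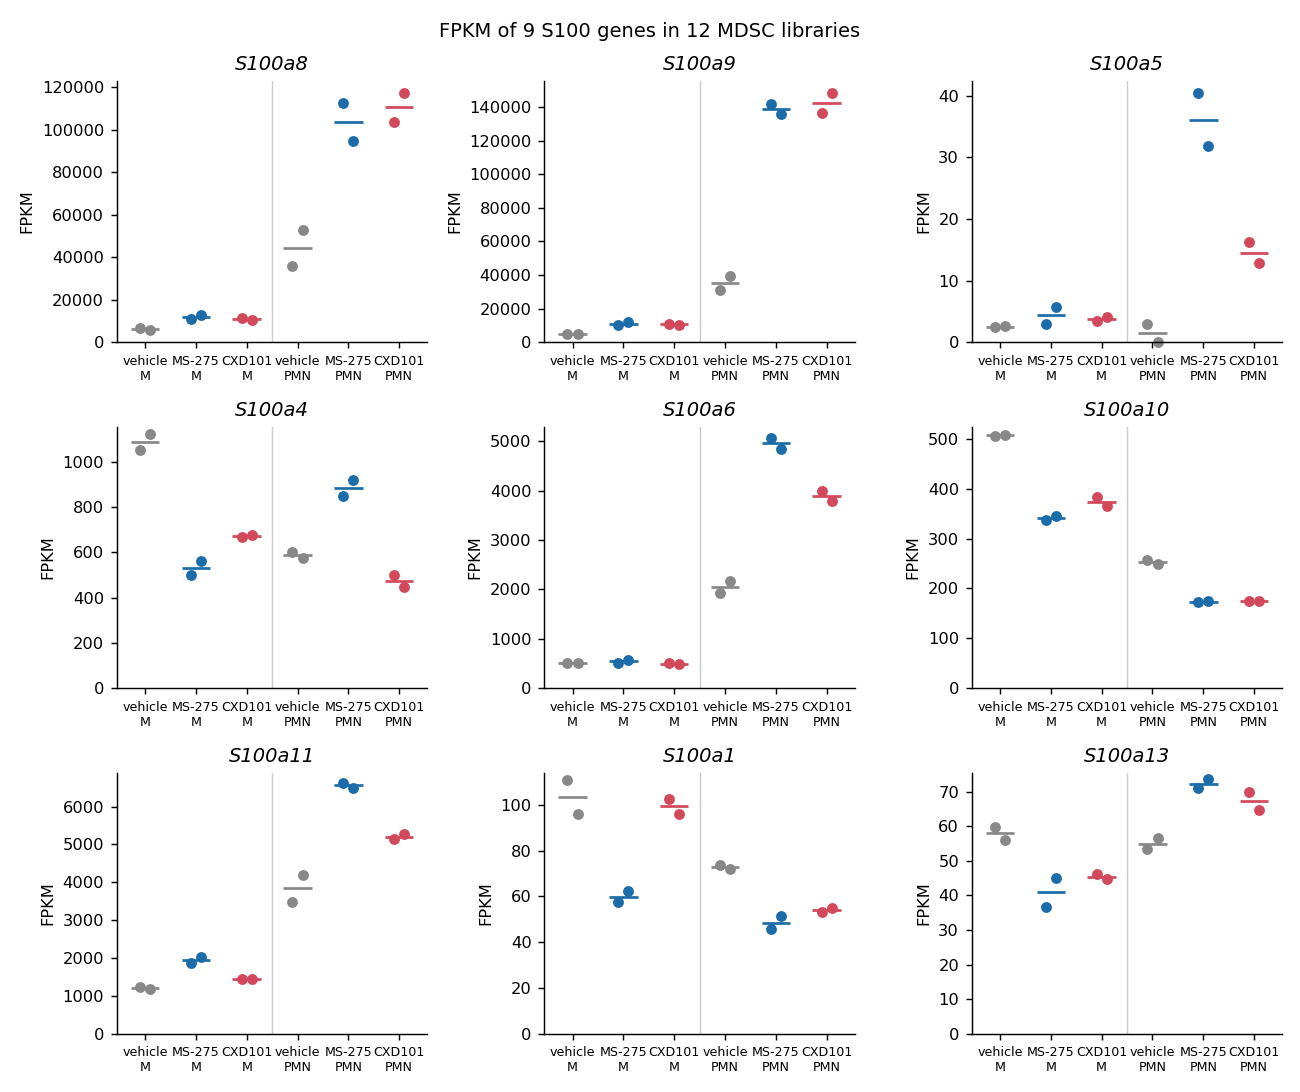
FPKM (linear axis from 0, 1 panel a gene) of the 9 S100 genes in M-MDSC (left of the line) and PMN-MDSC libraries by treatment; points are libraries and bars the mean of 2. S100a8, S100a9 and S100a5 stand highest in treated PMN-MDSCs, while S100a4 and S100a10 stand highest in vehicle M-MDSCs.

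S100a8, the smaller calprotectin chain, measured 6434 and 5693 FPKM in vehicle M-MDSCs, 10828 and 12836 with MS-275 and 11178 and 10467 with CXD101. In PMN-MDSCs it measured 35863.5 and 52947 FPKM with vehicle, 112553 and 94852 with MS-275 and 103851 and 117432 with CXD101. In both subsets every treated library lay above both vehicle libraries, and the MS-275 and CXD101 libraries overlapped. The rise was 1.95-fold with MS-275 (log2 fold change 0.96, SE 0.10) and 1.79-fold with CXD101 (0.84, SE 0.10) in M-MDSCs. In PMN-MDSCs it was 2.37-fold with MS-275 (1.25, SE 0.19) and 2.53-fold with CXD101 (1.34, SE 0.19). The direction in PMN-MDSCs flipped to -0.37 for both inhibitors under quantile normalization, which gives each gene the value of its rank, and with no filter on low values S100a8 was not past the limits there with either inhibitor.

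S100a9, the larger chain, measured 4915 and 4869 FPKM in vehicle M-MDSCs, 10007 and 11888 with MS-275 and 10842.5 and 10326 with CXD101. Its PMN-MDSC values were 31056 and 39303 FPKM with vehicle, 141557 and 135901 with MS-275 and 136377 and 148247 with CXD101. Again no treated library overlapped a vehicle library, and the 2 inhibitors overlapped each other. S100a9 was 2.23-fold higher with MS-275 (1.16, SE 0.08) and 2.16-fold higher with CXD101 (1.11, SE 0.08) in M-MDSCs. In PMN-MDSCs the fold was 3.97 with MS-275 (1.99, SE 0.13) and 4.07 with CXD101 (2.02, SE 0.13). Under quantile normalization these PMN-MDSC differences were 0.37 for both inhibitors and were no longer past the limits, nor were those of S100a8 and S100a9 in M-MDSCs.

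The balance between the chains, which no constant factor for a library can change, shifted with treatment. S100a9 divided by S100a8 was 0.764 and 0.855 in vehicle M-MDSC libraries and 0.924 to 0.987 in the 4 treated ones. The ratio was 0.866 and 0.742 in vehicle PMN-MDSC libraries and 1.26 to 1.43 in the 4 treated ones. In neither subset did treated and vehicle libraries overlap, and only the treated PMN-MDSC libraries had more S100a9 than S100a8 per kilobase. The vehicle ratios of the subsets overlapped.

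Together, S100a8 and S100a9 took 1.78% and 1.95% of the summed FPKM in vehicle M-MDSC libraries and 3.57% to 4.28% in treated ones. In PMN-MDSCs their share was 10.2% and 13.7% with vehicle and 27.3% to 30.9% with an inhibitor. Their transcripts are short, so their share of fragments is smaller. Weighted by transcript length, it came to 0.509% to 0.547% in vehicle and 1.04% to 1.26% in treated M-MDSC libraries, and to 2.98% to 4.07% in vehicle and 9.13% to 10.7% in treated PMN-MDSC libraries. The other 7 genes together took 0.531% to 0.626% of the summed FPKM in M-MDSC libraries and 0.973% to 1.51% in PMN-MDSC libraries.

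**Figure D2:**
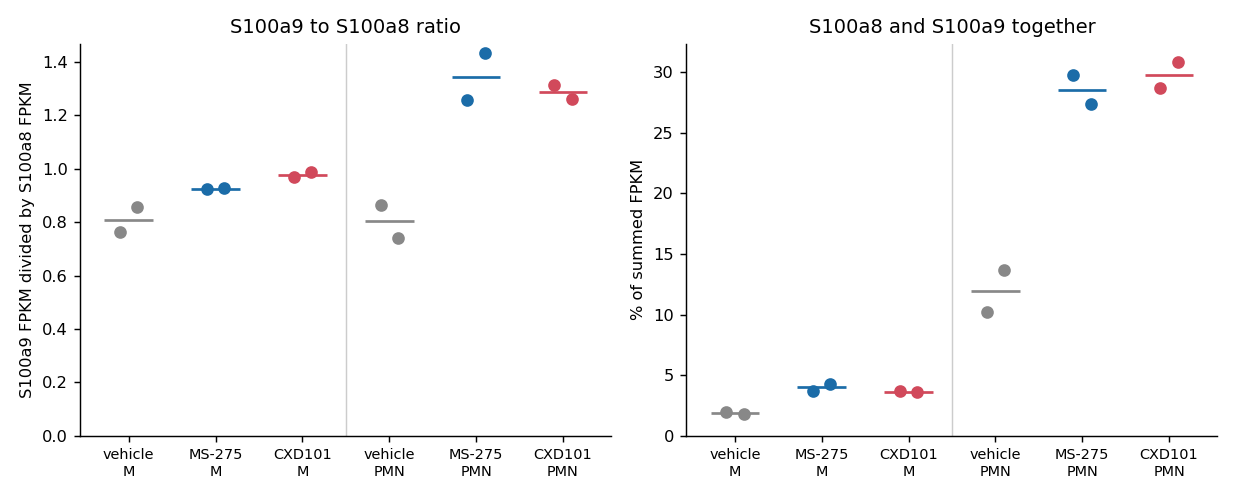
Left, S100a9 FPKM divided by S100a8 FPKM; right, the share of the summed FPKM taken by both genes (%); points are libraries and bars the mean of 2 per group. The ratio exceeds 1 in the 4 treated PMN-MDSC libraries alone (1.26 to 1.43), where the share is 27.3% to 30.9%.

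The summed level of a list of neutrophil genes was higher in treated libraries too, through partly different genes in the 2 subsets. All 12 genes of a neutrophil list (among them Cxcr2, Csf3r, Camp, Ltf and Elane) were measured and none was at 0 in every library. Their summed FPKM was 2630 to 2782 in vehicle M-MDSC libraries, 5758 to 6153 with MS-275 and 5262 to 5425 with CXD101. In PMN-MDSC libraries it was 7019 to 7771 with vehicle, 31553 to 31913 with MS-275 and 37226 to 37715 with CXD101. In M-MDSCs Cxcr2, Csf3r, Mmp8, Elane and Mpo were called higher with both inhibitors and Mmp9 lower, and Camp and Ltf were lower with MS-275. Of all genes tested there, 10.1% were higher and 7.32% lower with MS-275, and 5.14% and 2.997% with CXD101. Elane and Mpo, which encode granule enzymes of early granulocyte precursors, went from means of 438 to 2154 and from 278 to 1039 FPKM with MS-275. Ltf and Camp, which encode proteins of granules made later, went from 87.4 to 30.4 and from 67.3 to 33.2 FPKM. In PMN-MDSCs 8 of the 12 (Camp, Cxcr2, Elane, Lcn2, Ltf, Mmp8, Ngp and Retnlg) were called higher with both inhibitors and Mmp9 lower with MS-275. Cxcr2, Elane and Mmp8 were thus called higher with both inhibitors in both subsets. The shares of all genes tested in PMN-MDSCs were 14.6% and 11.9% higher and 14.2% and 9.54% lower with MS-275 and CXD101. Ngp, a neutrophil granule gene, made up much of the sum there, with a mean of 1559 FPKM under vehicle, 14431 with MS-275 and 19288 with CXD101. Their part in the S100 results was not tested, and in bulk libraries more cells of a type and more RNA per cell cannot be told apart.

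Lists for other cells gave lower sums. The 10 monocyte and macrophage markers summed to 374 to 391 FPKM in vehicle and 309 to 344 in treated M-MDSC libraries, and to 330.1 to 363 in vehicle and 192 to 207 in treated PMN-MDSC libraries. The 5 eosinophil markers summed to 10.2 to 15.0 FPKM in vehicle M-MDSCs, 144 to 163 with MS-275 and 112 to 123 with CXD101, and to 48.2 to 66.2 in PMN-MDSC libraries. The sums of 6 lymphocyte and NK cell markers were 0.302 to 3.47 FPKM, with Ncr1 at 0 throughout, and those of 7 hepatocyte and liver tumor markers 1.69 to 7.83 FPKM, with Ttr, Serpina1a and Krt8 at 0. The 6 fibroblast and endothelial markers summed to 9.23 to 9.89 FPKM in vehicle M-MDSCs, 33.8 to 36.1 with MS-275 and 27.0 to 27.2 with CXD101, and to 18.2 to 18.7, 58.5 to 60.6 and 54.7 to 55.6 FPKM in PMN-MDSCs. Pecam1 (CD31), which leukocytes also express, made up nearly all of this sum and was called higher in all 4 comparisons. Col1a2 and Dcn were at 0 throughout, Cdh5 and Col3a1 reached a mean of 0.0776 and 0.0406 FPKM at most, and Col1a1 a mean of 4.13 FPKM. Col1a1 was also called higher, with CXD101 in PMN-MDSCs alone, where 11.9% of all genes tested were higher. The 4 measured erythroid markers summed to 0.724 FPKM at most. The part of the macrophage, eosinophil, fibroblast and endothelial markers in the S100 results was not tested.

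S100a5, which binds calcium, zinc and copper and is best known from olfactory neurons, was the weakest of the 9 and had the largest fold. It measured 2.48 and 2.59 FPKM in vehicle M-MDSCs, 2.997 and 5.68 with MS-275 and 3.38 and 4.02 with CXD101. In PMN-MDSCs it measured 2.93 and 0 FPKM with vehicle, 40.4 and 31.8 with MS-275 and 16.2 and 12.8 with CXD101. Treated and vehicle libraries did not overlap in either subset, and in PMN-MDSCs both MS-275 libraries lay above both CXD101 libraries. In PMN-MDSCs the log2 fold change was 4.21 (SE 0.53) with MS-275 and 2.96 (SE 0.53) with CXD101. Without the vehicle library at 0 these became 3.23 and 1.97, without the other vehicle library 5.20 and 3.95, and with a pseudocount of 0.1 they were 6.03 and 4.72, all past both limits. In M-MDSCs the changes of 0.55 (SE 0.22) with MS-275 and 0.41 (SE 0.22) with CXD101 were not past the limits. The M-MDSC rise with MS-275 did pass them with a common sum without S100a8 and S100a9 and without MS-275 replicate 1. At the estimated depth 1 FPKM of this short transcript stands for 3.24 fragments in a PMN-MDSC library, so the vehicle values rest on few fragments. With 1 vehicle library at 0, S100a5 passed the limit on low values in PMN-MDSCs through treated libraries, so the filter favored a call of higher.

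S100a4, also called metastasin or Fsp1 and known for cell migration, was called lower with MS-275 in M-MDSCs and higher in PMN-MDSCs. S100a13 turned between subsets too, by less than the 1.5-fold limit in each. S100a4 measured 1054 and 1123 FPKM in vehicle M-MDSCs, 501 and 562 with MS-275 and 669.7 and 677 with CXD101. In PMN-MDSCs it measured 603 and 574 FPKM with vehicle, 851 and 923 with MS-275 and 499 and 447 with CXD101. In M-MDSCs every treated library lay below the vehicle libraries, while in PMN-MDSCs the MS-275 libraries lay above and the CXD101 libraries below them. In M-MDSCs S100a4 fell 2.05-fold with MS-275 (-1.03, SE 0.07) and 1.62-fold with CXD101 (-0.69, SE 0.07). In PMN-MDSCs it was 1.51-fold higher with MS-275 (0.59, SE 0.07), just past the 1.5-fold limit. With CXD101 its change of -0.32 (SE 0.07) in PMN-MDSCs was not past it. The PMN-MDSC rise fell short of the limit at 0.54 with a common sum without S100a8 and S100a9, at 0.55 under quantile normalization, and without vehicle replicate 2 or MS-275 replicate 2.

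S100a6, whose product calcyclin binds annexins and CacyBP, changed in PMN-MDSCs. Its values there were 1920.15 and 2162 FPKM with vehicle, 5065 and 4848 with MS-275 and 3996 and 3795 with CXD101, with no overlap among the 3 groups. The rise was 2.43-fold with MS-275 (1.28, SE 0.08) and 1.91-fold with CXD101 (0.93, SE 0.08). In M-MDSCs its 6 libraries ran from 477 to 572 FPKM and the changes were 0.10 (95% interval -0.05 to 0.26) with MS-275 and -0.03 (-0.18 to 0.12) with CXD101.

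S100a11, whose product binds annexin A1, measured 1231 and 1187 FPKM in vehicle M-MDSCs, 1881 and 2021 with MS-275 and 1455 and 1439.8 with CXD101. In PMN-MDSCs it measured 3483 and 4204 FPKM with vehicle, 6626 and 6494 with MS-275 and 5142 and 5277 with CXD101. In both subsets the groups did not overlap and ran from vehicle through CXD101 to MS-275. With MS-275 S100a11 was 1.61-fold higher in M-MDSCs (0.69, SE 0.06) and 1.71-fold higher in PMN-MDSCs (0.78, SE 0.09). With CXD101 its changes of 0.26 (SE 0.06) and 0.44 (SE 0.09) were under the 1.5-fold limit. The PMN-MDSC call with MS-275 was lost under quantile normalization. Over the alternatives the PMN-MDSC change ran from 0.31 to 0.91 with MS-275 and from -0.11 to 0.58 with CXD101. A pseudogene, S100a11-ps, is annotated elsewhere in the genome, and reads shared with it could be split between the copies.

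S100a10 differs from the rest in that its product has lost calcium binding. It measured 507 FPKM in both vehicle M-MDSC libraries, 337 and 345 with MS-275 and 382 and 366 with CXD101. Its PMN-MDSC values were 258 and 248.9 FPKM with vehicle, 172 and 175 with MS-275 and 174 in both CXD101 libraries. All 4 treated libraries of each subset lay below its vehicle libraries, and the spread within groups was small. The changes were -0.57 and -0.44 (SE 0.05 each) in M-MDSCs with MS-275 and CXD101, and -0.54 for both (SE 0.06) in PMN-MDSCs. All 4 were under the 1.5-fold limit, the largest being 1.49-fold lower with MS-275 in M-MDSCs. The MS-275 changes are close to it, and S100a10 was called lower in M-MDSCs without MS-275 replicate 2 (-0.588) and in PMN-MDSCs with a common sum without S100a8 and S100a9 (-0.593).

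S100a1, best known from heart and skeletal muscle, and S100a13, which takes part in the export of FGF1 and interleukin-1 alpha, start close together on opposite strands. Their gene models given above do not overlap. The annotation behind the FPKM and whether fragments were counted by strand are not stated, so reads of any shared stretch could fall to either gene. S100a1 measured 111 and 95.9 FPKM in vehicle M-MDSCs, 57.4 and 62.5 with MS-275 and 103 and 96.1 with CXD101. In PMN-MDSCs it measured 73.8 and 72.2 FPKM with vehicle, 45.6 and 51.3 with MS-275 and 53.4 and 55.0 with CXD101. In M-MDSCs the MS-275 libraries stood alone below the others, with a 1.71-fold fall (-0.77, SE 0.08), while the change with CXD101 was -0.05 (95% interval -0.24 to 0.14). In PMN-MDSCs all treated libraries lay below vehicle, with changes of -0.58 and -0.42 (SE 0.08 each) that were under the limit, the first by a margin so small (1.498-fold lower) that it passed with a pseudocount of 0.1, with a common sum without S100a8 and S100a9 (-0.633), and without vehicle replicate 2 or MS-275 replicate 2.

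S100a13 measured 59.9 and 56.1 FPKM in vehicle M-MDSCs, 36.8 and 45.0 with MS-275 and 46.2 and 44.7 with CXD101. In PMN-MDSCs it measured 53.5 and 56.5 FPKM with vehicle, 71.1 and 73.7 with MS-275 and 70.0 and 64.8 with CXD101. The treated libraries lay below vehicle in M-MDSCs and above it in PMN-MDSCs. None of the 4 changes passed the 1.5-fold limit, although the fall with MS-275 in M-MDSCs did without MS-275 replicate 2 (-0.643). They were -0.50 and -0.34 (SE 0.09 each) in M-MDSCs and 0.39 and 0.29 (SE 0.07 each) in PMN-MDSCs, with MS-275 and CXD101.

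**Figure D3:**
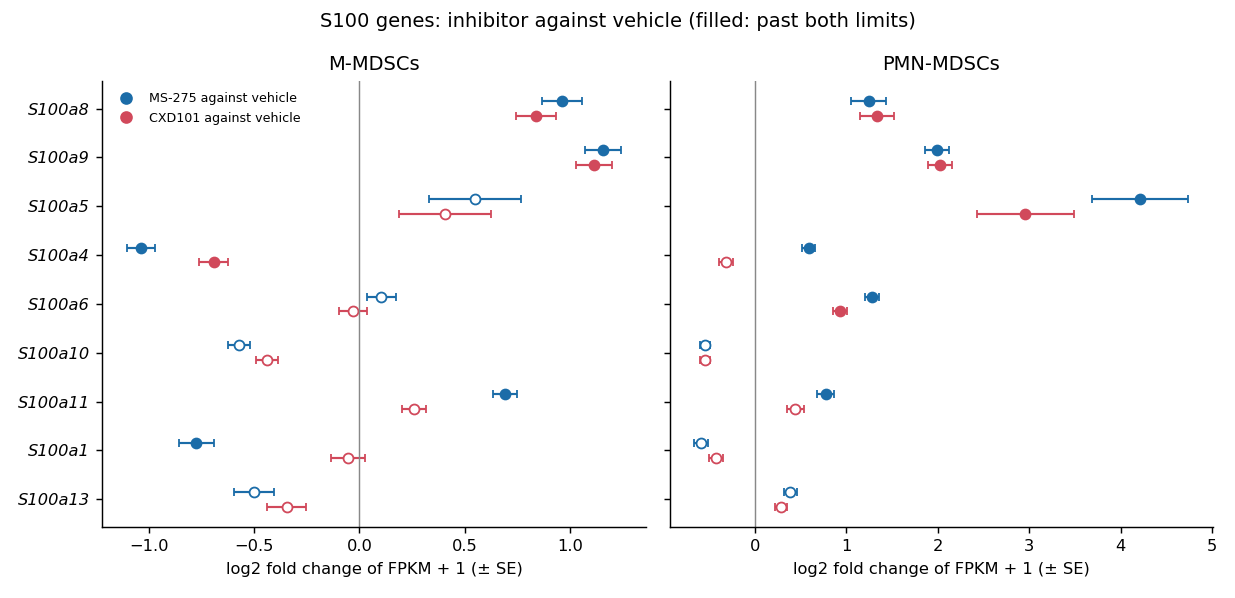
Log2 fold change (± SE) of the 9 S100 genes with MS-275 and CXD101 against the same vehicle libraries in M-MDSCs and PMN-MDSCs (the 2 panels have different scales); filled points are past both limits. S100a8 and S100a9 are to the right of 0 in all 4 comparisons (S100a8 flips in PMN-MDSCs under quantile normalization), and S100a4 with MS-275 is to the left in M-MDSCs and to the right in PMN-MDSCs.

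Counted over the 9 genes, MS-275 gave 3 higher (S100a8, S100a9 and S100a11) and 2 lower (S100a4 and S100a1) in M-MDSCs, 5 of 9 where 17.5% of the 11078 genes tested were called. CXD101 gave 2 higher (S100a8 and S100a9) and 1 lower (S100a4) in M-MDSCs, 3 of 9 where 8.13% of the genes tested were called. In PMN-MDSCs MS-275 gave 6 higher and none lower, where 14.6% of the 11184 genes tested were higher and 14.2% lower. With a common sum without S100a8 and S100a9 this became 5 higher and 2 lower (S100a1 and S100a10), and 1 was lower (S100a1) with a pseudocount of 0.1 and without vehicle replicate 2 or MS-275 replicate 2. CXD101 gave 4 higher (S100a8, S100a9, S100a5 and S100a6) and none lower in PMN-MDSCs, where 11.9% and 9.54% were higher and lower. The median log2 fold change of the 9 genes was 0.10 and -0.03 in M-MDSCs and 0.78 and 0.44 in PMN-MDSCs with MS-275 and CXD101, against -0.06, -0.02, -0.03 and -0.03 over all genes tested. The genes had been chosen on these contrasts, the 2 inhibitors share their vehicle libraries, and nothing is read from the counts.

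MS-275 and CXD101, both given at the same dose and schedule per the methods, differed in 1 gene of the 9 in each subset, over 18 comparisons in all. In M-MDSCs S100a1 was 1.65-fold lower with MS-275 than with CXD101 (-0.72, 95% interval -0.91 to -0.53), where 4.40% of the genes tested differed. In PMN-MDSCs S100a4 was 1.87-fold higher with MS-275 (0.91, interval 0.73 to 1.08), where 0.805% of the genes tested differed. S100a5 in PMN-MDSCs was higher with MS-275 in both libraries, with a difference of 1.25 whose interval of 0.03 to 2.48 is wide. It was past the limits once either vehicle library was left out. The S100a4 call was lost with no filter on low values, with a 2-fold limit and without CXD101 replicate 2.

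For calprotectin the inhibitors were close. The S100a8 difference was 0.12 (interval -0.10 to 0.34) in M-MDSCs and -0.10 (-0.53 to 0.34) in PMN-MDSCs. For S100a9 it was 0.04 (-0.15 to 0.24) in M-MDSCs and -0.04 (-0.34 to 0.27) in PMN-MDSCs. Between these bounds a difference in either direction could be present. S100a11 was higher with MS-275 by 0.43 (0.30 to 0.56) in M-MDSCs and by 0.33 (0.12 to 0.55) in PMN-MDSCs, and S100a6 by 0.35 (0.17 to 0.53) in PMN-MDSCs, all under the 1.5-fold limit. The S100a4 difference in M-MDSCs was -0.34 (-0.50 to -0.19), of the opposite sign to that in PMN-MDSCs. For S100a10 in PMN-MDSCs it was -0.0019 (-0.13 to 0.13).

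**Figure D4:**
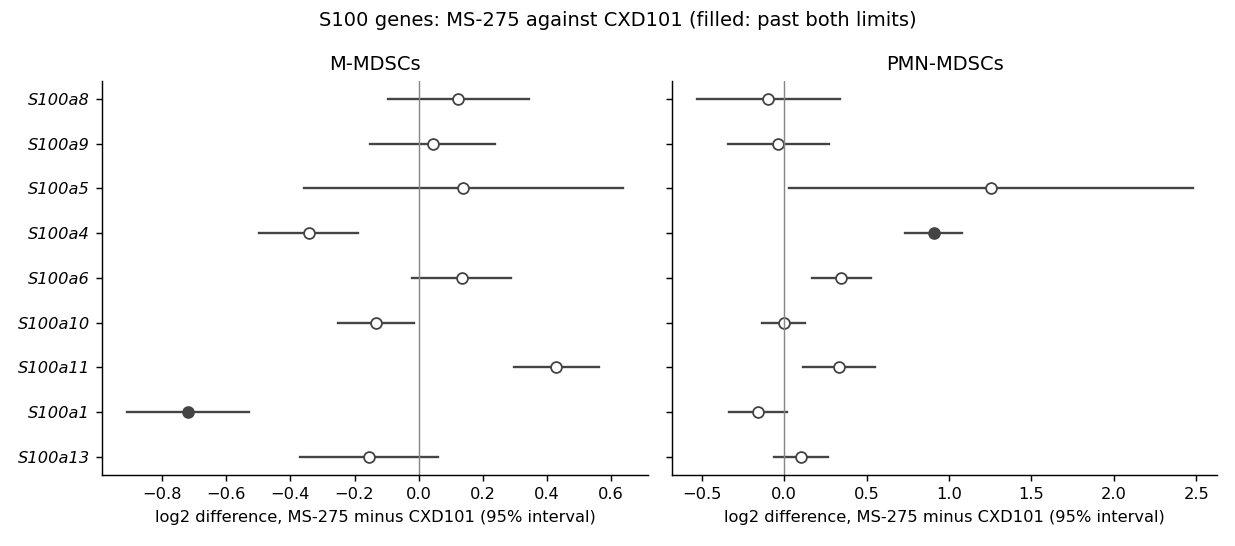
Difference between MS-275 and CXD101 (log2, MS-275 minus CXD101) with its 95% interval for each S100 gene in M-MDSCs and PMN-MDSCs; filled points are past both limits. S100a1 in M-MDSCs (-0.72) and S100a4 in PMN-MDSCs (0.91) are the 2 filled points, and the interval of S100a5 is the widest.

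The response in PMN-MDSCs minus that in M-MDSCs was taken from a model of all 12 libraries. With MS-275 it was past the limits for 5 of the 9 genes, all higher in PMN-MDSCs, where 8.65% of the 11662 genes tested were higher and 9.48% lower. The differences were 3.67 (SE 0.68) for S100a5, 1.62 (SE 0.11) for S100a4, 1.18 (SE 0.11) for S100a6, 0.89 (SE 0.12) for S100a13 and 0.83 (SE 0.16) for S100a9. With CXD101 it was past the limits for 4, again all higher, where 7.31% were higher and 6.59% lower. These were S100a5 with 2.55 (SE 0.68), S100a6 with 0.96 (SE 0.11), S100a9 with 0.91 (SE 0.16) and S100a13 with 0.63 (SE 0.12). For S100a8 the difference was 0.28 (95% interval -0.24 to 0.81) with MS-275 and 0.50 (-0.02 to 1.03) with CXD101. Under quantile normalization S100a8 instead stood at -1.41 with MS-275 and -1.59 with CXD101, past the limits, S100a6 and S100a9 lost their calls for both, and the S100a9 difference with MS-275 turned to -0.22. With no filter on low values S100a9 lost its calls for both inhibitors and S100a5 its call for CXD101. The CXD101 count fell to 2 (S100a6 and S100a9) without CXD101 PMN-MDSC replicate 1, and S100a5 was lost from it with a pseudocount of 0.1 and when vehicle M-MDSC replicate 1 or 2 or CXD101 M-MDSC replicate 1 was left out.

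Of 7 further S100 genes, S100a16, S100g and S100z were at 0 in all 12 libraries and S100b and S100a14 stayed under 1 FPKM. S100a7a, of the psoriasin group of epidermal S100 genes, was at 0 in all M-MDSC libraries but one (0.361 FPKM with CXD101). In PMN-MDSCs S100a7a measured 0.835 and 1.29 FPKM with vehicle, 6.55 and 7.13 with MS-275 and 4.54 and 4.05 with CXD101. It passed the limit on low values through treated libraries, as 1 vehicle library was under 1 FPKM, so the filter favored a call of higher. Its changes are therefore given without p-values. S100a7a was called higher, by 1.94 on the log2 scale with MS-275 and by 1.37 with CXD101, and lies between S100a6 and S100a8. S100a3 reached 1.79 FPKM at most and did not pass the test in PMN-MDSCs (limma adjusted p = 0.0622 with MS-275 and 0.348 with CXD101). S100a2, whose gene model lies inside that of S100a3, was named after its values were seen. It was listed at 0 in all M-MDSC libraries and at 2.02 to 5.55 FPKM in PMN-MDSC libraries, with no call for either inhibitor.

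Most other genes along this part of the chromosome were listed at 0. From S100a1 to S100a10 the annotation has 61 other protein-coding genes, of which 54 are in the tables and 3 were above 0 in any library. These 3 are genes of the epidermis, namely Ivl (involucrin), Pglyrp4 (a peptidoglycan recognition protein) and Tchh (trichohyalin). They were picked after values were seen, so their changes are given without p-values. All 3 were called higher in PMN-MDSCs with each inhibitor, where 14.6% and 11.9% of all genes tested were higher with MS-275 and CXD101. In vehicle PMN-MDSC libraries Ivl (0.196 and 0.403 FPKM) and Pglyrp4 (0.278 and 0.798 FPKM) were under 1 FPKM. Both passed the limit on low values through treated libraries alone, so the filter favored a call of higher. With MS-275 Ivl reached 4.71 and 3.96 FPKM, a rise of 2.04 on the log2 scale. The rise was 1.52 for Pglyrp4 and 0.94 for Tchh. With CXD101 the rises were 1.35, 0.94 and 0.80 for Ivl, Pglyrp4 and Tchh. In M-MDSC libraries all 3 stayed below 1 FPKM.

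The receptors that calprotectin and other S100 proteins bind were counted next. Genes named from this list and from the partner and factor lists were picked for the largest changes in these same inhibitor comparisons. Their p-values are adjusted over all genes tested and describe picked genes. Of 12 receptor and signaling genes in M-MDSCs, MS-275 gave 1 higher and 6 lower, where 10.1% and 7.32% of all genes tested were higher and lower. CXD101 gave none higher and 3 lower, where 5.14% and 2.997% were, with medians of -0.50 and -0.26 against -0.06 and -0.02 over all genes. Cd14, the co-receptor of TLR4, measured 23.9 and 28.2 FPKM in vehicle M-MDSCs, 11.3 and 8.36 with MS-275 and 11.1 and 11.8 with CXD101. Cd14 fell by 1.33 on the log2 scale with MS-275 (limma adjusted p = 0.000144) and by 1.12 with CXD101 (adjusted p = 0.001). In PMN-MDSCs, with 109 to 171 FPKM, Cd14 did not pass the limits. Ly96, the MD-2 subunit that TLR4 needs to bind its ligands, fell by 1.36 with MS-275 in M-MDSCs (limma adjusted p = 0.00365) and changed by -0.41 with CXD101 (adjusted p = 0.297).

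In PMN-MDSCs 2 of the 12 receptor genes were higher and 1 lower with each inhibitor, where 14.6% of all genes tested were higher and 14.2% lower with MS-275 and 11.9% and 9.54% with CXD101. Cd69, a lymphocyte activation antigen that binds calprotectin, rose by 1.61 with MS-275 (limma adjusted p = 8.02e-05) and by 1.05 with CXD101 (adjusted p = 0.000876) there, and by 0.71 with MS-275 in M-MDSCs (0.00295). Cd36, a scavenger receptor that takes up the fatty acids calprotectin carries, fell in all 4 comparisons. It fell by 0.81 and 1.14 in M-MDSCs and by 1.45 and 1.54 in PMN-MDSCs with MS-275 and CXD101 (limma adjusted p = 0.00266, 0.00132, 0.000186 and 0.000235).

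Intracellular partners of S100 proteins were 18 listed genes, of which 16 were tested. In M-MDSCs none was higher and 4 were lower with MS-275, and none was higher and 1 was lower with CXD101, where 7.32% and 2.997% of all genes tested were lower. In PMN-MDSCs 6 were higher and 4 lower with MS-275, where 14.6% and 14.2% of all genes were, and 4 were higher and 5 lower with CXD101, where 11.9% and 9.54% were. Ahnak, the giant scaffold that S100A10 and annexin A2 hold at the membrane, fell by 1.01 and 0.79 in M-MDSCs and by 0.96 and 0.90 in PMN-MDSCs with MS-275 and CXD101 (limma adjusted p = 2.84e-05, 0.000312, 8.88e-05 and 0.000209). Anxa5, a calcium-dependent phospholipid binder, fell by 1.01 with MS-275 in M-MDSCs and by 1.35 and 0.92 in PMN-MDSCs (limma adjusted p = 1.69e-05, 6.46e-06 and 5.06e-05). Anxa6, a related annexin, rose by 1.08 and 0.80 in PMN-MDSCs (limma adjusted p = 2.24e-05 and 0.000136). Cybb encodes the catalytic subunit of the NADPH oxidase, to which calprotectin delivers arachidonic acid. It went from 199.7 and 209 FPKM to 492 and 481 with MS-275 and 442 and 449 with CXD101 in PMN-MDSCs, rises of 1.25 and 1.12 (limma adjusted p = 4.44e-06 and 1.06e-05).

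Among 14 transcription factors linked to S100a8 and S100a9, 3 were higher in M-MDSCs with each inhibitor, and 3 were lower with MS-275 and 1 with CXD101, where 10.1% and 5.14% of all genes tested were higher and 7.32% and 2.997% lower. In PMN-MDSCs 5 were higher with each inhibitor, and 2 were lower with MS-275 and 1 with CXD101, where 14.6% and 11.9% of all genes were higher and 14.2% and 9.54% lower. Cebpe, the C/EBP factor of late granulocyte development, measured 45.5 and 43.1 FPKM in vehicle PMN-MDSCs, 182 and 191 with MS-275 and 168 and 190.1 with CXD101. Cebpe rose by 2.05 and 1.99 there (limma adjusted p = 2.48e-06 and 4.34e-06) and by 0.59 and 0.60 in M-MDSCs (0.0139 and 0.0247). The M-MDSC calls of Cebpe were lost with no filter (limma adjusted p = 0.0507 and 0.0845) and without vehicle replicate 1 (0.0802 and 0.13), that for MS-275 without MS-275 replicate 2 (0.076), and that for CXD101 without vehicle replicate 2 (0.0538) or CXD101 replicate 2 (0.116). Gfi1, a repressor needed for neutrophil development, rose by 1.36 and 1.22 in M-MDSCs and by 1.97 and 1.88 in PMN-MDSCs (limma adjusted p = 1.15e-05, 7e-05, 1.25e-05 and 2.4e-05). Klf5 rose by 1.72 and 1.37 and Irf7, a regulator of interferon genes, by 1.31 and 1.28 in PMN-MDSCs (limma adjusted p = 1.42e-05, 6.34e-05, 1.33e-05 and 2.38e-05). In M-MDSCs Klf5 and Irf7 did not pass both limits. Klf5 missed only the 1.5-fold limit there with CXD101, with a rise of 0.49 (limma adjusted p = 0.0419). The difference in response between subsets was called for both genes and both inhibitors.

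**Figure D5:**
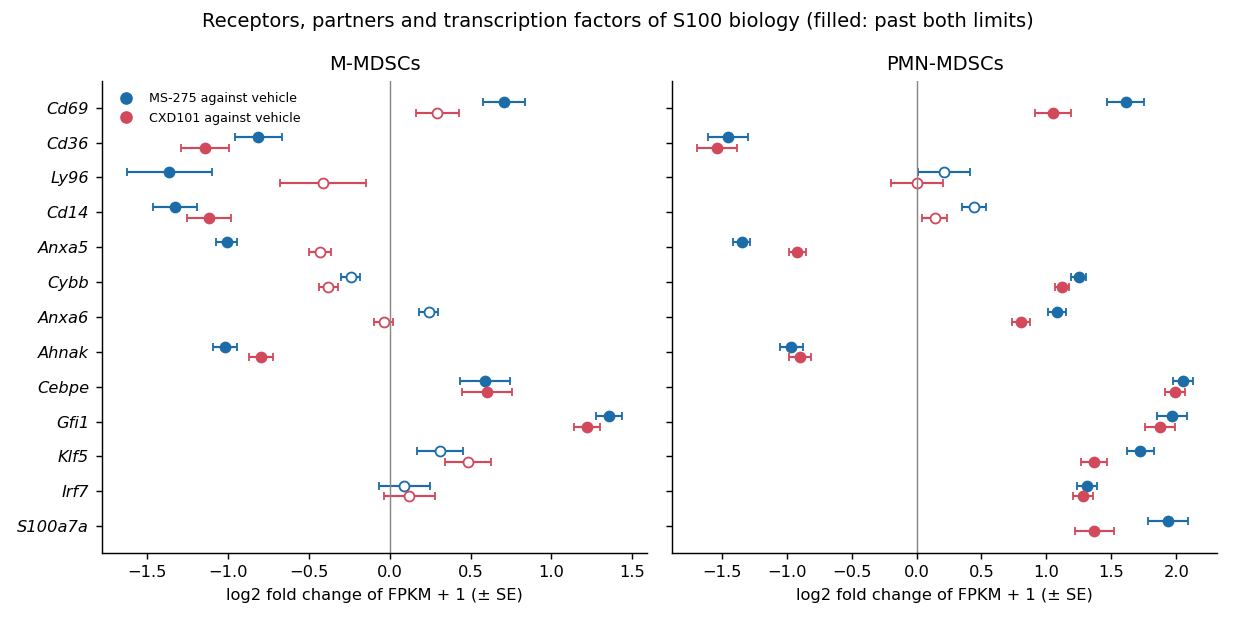
Log2 fold change (± SE) of receptors (Cd69 to Cd14), intracellular partners (Anxa5 to Ahnak), transcription factors (Cebpe to Irf7) and S100a7a with MS-275 and CXD101 against the shared vehicle libraries; filled points are past both limits and S100a7a was below the limit on low values in M-MDSCs. Cd36 and Ahnak are to the left of 0 in all 4 comparisons and Cebpe and Gfi1 to the right.

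The genes whose pattern over the 12 libraries was most like that of a member were sought among 11649 genes outside the S100 family. Likeness was the root mean square of the log2 differences after centring. Nearest to S100a8 were F630028O10Rik (0.158), 5830416P10Rik (0.217) and 9830107B12Rik (0.223). Nearest to S100a9 were Ifitm6 (0.260), F630028O10Rik (0.281) and Cd177 (0.291), a neutrophil surface antigen that went from a mean of 285 FPKM in vehicle PMN-MDSCs to 1577 with MS-275 and 1484 with CXD101. S100a5 had no gene closer than Lsr (0.599). Nearest to S100a4 were Cdkn2c (0.265), Sdhaf1 (0.267) and Meis1 (0.269).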

How the data were processed

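Total RNA of sorted cells was used for stranded poly(A) libraries read single-end. The labels name the miRNeasy Micro kit for extraction and the methods the Mini kit. The authors deposited 1 table per library with the FPKM of 24346 symbols, scaled by them to library size and transcript length. The submitters' processing notes name TopHat2 2.1.1, Bowtie2 2.2.8, SAMtools 0.1.18, Cuffdiff 2.2.1 and mm10. The annotation and the strand setting of counting are not given in the sources used here. Counts were not used, so no counting interval was computed, and depth was inferred from the spacing of values up to 0.5 FPKM in transcripts of at least 1000 bases.

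Groups were taken from the titles. Genes reaching 1 FPKM in 2 or more libraries of a model were tested with limma 3.58.1 (R 4.3.3; intensity trend) on log2(FPKM + 1), in 1 model per cell type with all 3 treatments, and in 1 model of 12 libraries for differences between cell types. P-values were adjusted by Benjamini-Hochberg over all genes tested. The fit was tested on simulated data. Python 3.11.15, pandas 2.3.3, numpy 2.4.6 and matplotlib 3.10.9 served for the rest.

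The 9 genes, the 12 lists of other genes and the tests were chosen with earlier results of these data known. Genes named from the receptor, partner and factor lists were the 4 of each with a mean of at least 5 FPKM in a group and the largest change in any inhibitor comparison. The promoter motifs and the genes between the S100 stretches were chosen after values were seen. Not analysed here were Ly6g and Hbb-bt. Transcript lengths from GENCODE matched 23310 symbols (95.7%). Alternatives were a pseudocount of 0.1, other filters, 3 other scalings, a replicate block, a 2-fold limit, all 12 libraries in 1 model and leaving out each library.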

Additional observations from a re-analysis of the deposited data

Results flagged for a closer look

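S100a4 with MS-275 moved in opposite directions in every library of the subsets, down in M-MDSCs and up in PMN-MDSCs, a difference in response of 1.62 on the log2 scale that was past both limits of the 12-library fit and is given without a p-value because the gene was chosen with these values known. S100a13 also went down in M-MDSCs and up in PMN-MDSCs in every library, by a difference of 0.89 with MS-275 and 0.63 with CXD101, likewise past both limits and given without a p-value. For other named genes the difference in response, PMN-MDSCs minus M-MDSCs, was past both limits of the limma fit. With MS-275 it was 0.91 for Cd69, -0.64 for Cd36, 1.57 for Ly96, 1.77 for Cd14, 1.49 for Cybb, 0.84 for Anxa6, 1.46 for Cebpe, 0.61 for Gfi1, 1.41 for Klf5, 1.22 for Irf7 and 1.94 for S100a7a. With CXD101 it was 0.75 for Cd69, 1.25 for Cd14, 1.498 for Cybb, 0.84 for Anxa6, 1.39 for Cebpe, 0.66 for Gfi1, 0.88 for Klf5, 1.16 for Irf7 and 1.15 for S100a7a. In M-MDSCs S100a7a was at 0 FPKM in all vehicle and MS-275 libraries and reached 0.361 FPKM at most with CXD101. It passed the limit on low values through PMN-MDSC libraries alone. Its values here therefore rest on its PMN-MDSC changes of 1.94 with MS-275 and 1.37 with CXD101. Both inhibitors share the vehicle libraries, so these values are not independent of each other.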

How the results depend on the processing

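Of the 9 S100 genes, the number past both limits moved by over 1.5 times as follows. Under quantile normalization it went from 5 to 3 with MS-275 and from 3 to 1 with CXD101 in M-MDSCs, and from 6 to 2 and from 4 to 2 in PMN-MDSCs. S100a8 then reversed to -0.37 with both inhibitors in PMN-MDSCs, and the S100a9 difference in response to MS-275 to -0.22. In this scaling a gene takes the value of its rank, and S100a8 and S100a9 only exchange the first places in PMN-MDSCs. With a limit of 2-fold the number was 2 and 1 in M-MDSCs, 0 for MS-275 against CXD101 in each subset (from 1), and 3 (from 5) and 1 (from 4) for the difference in response to MS-275 and CXD101. With no filter it was 0 for MS-275 against CXD101 in PMN-MDSCs and 2 for the response to CXD101. With a library left out it ranged from 5 to 7 and stayed at 3 with MS-275 and CXD101 in M-MDSCs, at 6 and 4 in PMN-MDSCs, from 0 to 2 and at 1 for MS-275 against CXD101 in PMN-MDSCs and M-MDSCs, from 6 to 7 between subsets under vehicle, at 5 for the response to MS-275 and from 2 to 5 for that to CXD101. Where an arm was left with 1 library, that library was assumed to vary like the other groups.

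The correlation of same-numbered deviations ran from -0.126 to 0.179 over 15 pairs of groups. With 1 such deviation per group, this cannot show whether same-numbered libraries share a mouse. With the replicate block the number past both limits was the same in all 9 comparisons of the S100 genes, for instance 5 with MS-275 in M-MDSCs. Over all genes, MS-275 against CXD101 in PMN-MDSCs had 90 genes past both limits, against 4 with no filter, 151 with all 12 libraries in 1 model and 10 to 23 without 1 treated library, and in M-MDSCs the 487 became 308 and 309 without 1 MS-275 library. A minimum of 5 FPKM left 1269 of 1934 and 591 of 901 in M-MDSCs with MS-275 and CXD101 and 268 of 487 between them. A 2-fold limit left 720, 261 and 134 in M-MDSCs, 1278 of 3214, 854 of 2394 and 40 in PMN-MDSCs, 1543 of 3968 between subsets, and 694 of 2115 and 474 of 1620 for the responses. For the difference in response to MS-275, PMN-MDSCs minus M-MDSCs, a common sum without S100a8 and S100a9 shifted the median by -0.11. It moved the share higher among genes called for that difference from 47.7% to 33.1%.

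Of the other named genes, Cebpe in M-MDSCs, Ly96 (MS-275 against CXD101), Cd36, Gfi1 and Cd69 (difference in response) lost their calls under at least 1 filter, scaling or left-out library, with adjusted p by limma of up to 0.166. Between subsets under vehicle Ly96 and Anxa6 lost theirs with some libraries left out. S100a7a lost its difference in response to CXD101 with a pseudocount of 0.1, where a value of 0.85 did not pass the p-value limit. None of these reversed. The 2 libraries per group limit every statement here.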
